A study of Mus musculus with 2 samples.

Results

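The transcripts of the FoxO transcription factors and of the Akt and SGK kinases that phosphorylate them were examined in RANKL-treated macrophages labelled Foxo3 KO and WT. The set was defined by gene symbol as Foxo1, Foxo3, Foxo4, Akt1, Akt2, Sgk1 and Sgk3, and all 7 were found among the 16614 genes listed in both files. Foxo3 KO and WT bone marrow macrophages, both of strain C57BL/6, had been cultured from femur and tibia marrow with M-CSF, the macrophage growth factor, for 3 days and then given RANKL, the osteoclast-inducing cytokine, for 2 days. Each genotype was represented by 1 poly-A RNA library, so no value has a replicate error and every difference describes these 2 libraries rather than the genotypes. The deleted Foxo3 sequence, the number, age and sex of the animals, and whether the KO was confined to a cell type are not stated in the labels.

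FoxO proteins are forkhead transcription factors that activate genes of stress resistance, cell cycle arrest, metabolism and autophagy while they are in the nucleus. Growth factor receptors such as the M-CSF receptor activate PI3K, whose lipid product recruits Akt to the membrane. Akt and the related SGK kinases then phosphorylate FoxO proteins at conserved sites, which lets 14-3-3 proteins hold them in the cytoplasm. This control acts on the protein, so transcript levels do not report FoxO location or Akt activity.

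The sites through which the kinases act are the feature that the FoxO genes share, and their coding bases are shown because they connect the factors with the kinases. The preferred target of Akt and SGK is an arginine, any residue, a second arginine, any pair of residues, and then the serine or threonine that is phosphorylated. A search of the coding sequences in GENCODE M21 found exactly 3 such matches in the longest annotated transcript of each of Foxo1, Foxo3 and Foxo4. Each line gives the gene with the codon number of the phosphorylated residue counted from the start codon, the mm10 position and strand, and the 18 coding bases, with the codon of the serine or threonine in capitals.
Foxo1, threonine codon 24, chr3:52268856-52268873, + strand: cggcagcgctcctgtACC
Foxo3, threonine codon 32, chr10:42275338-42275355, - strand: cggccacgctcctgtACG
Foxo4, threonine codon 32, chrX:101254899-101254916, + strand: cgtccgcgatcctgcACC
Foxo1, serine codon 253, chr3:52345159-52345176, + strand: cggagaagagctgcgTCC
Foxo3, serine codon 252, chr10:42197764-42197781, - strand: cggcggcgtgcggtcTCC
Foxo4, serine codon 197, chrX:101258297-101258314, + strand: cgccgcagggctgccTCC
Foxo1, serine codon 316, chr3:52345348-52345365, + strand: cgtcctcgaaccagcTCA
Foxo3, serine codon 314, chr10:42197578-42197595, - strand: cgctcgcgcaccaatTCC
Foxo4, serine codon 262, chrX:101258492-101258509, + strand: cgtccacgaagcagtTCA

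The Foxo3 sites bear on which transcripts the gene-level value mixes. The study's title names an isoform of the gene, and GENCODE M21 annotates 5 coding transcripts of Foxo3. The transcripts of 6848, 2889 and 2535 bases each encode 672 codons with all 3 sites. The transcript of 1316 bases encodes 244 codons and, of the sites, holds only the threonine one. The transcript of 514 bases is annotated without a stop codon, with 103 codons, and holds only the serine sites, at its own codons 33 and 95. The deposited values give 1 number per gene and do not separate these transcripts.

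Read totals are not given. From genes of few fragments the depth was estimated at 35800000 fragments in the KO and 25600000 fragments in the WT library, a ratio of 1.39. These numbers are approximate, because the submitters' annotation is not stated and transcript lengths were taken from GENCODE M21. The commonest low value of FPKM times length was also assumed to stand for 1 fragment. Levels are in FPKM, a fragment count divided by transcript length and by library size. A gene was called measured at 1 FPKM or more in at least 1 library, which held for 10003 genes and for all 7 of the set. Over the measured genes the median log2 ratio (KO over WT, after adding 1 FPKM to both values) was 0.03, and 87.7% lay within 0.25 of 0. Markers of the labelled cells were present: the macrophage genes Lyz2, Tyrobp and Cd68 stood at 1546 FPKM or more and the osteoclast genes Acp5, Ctsk and Mmp9 at 5009 FPKM or more in both libraries. Macrophage markers were below 0 in log2 ratio in 9 of 11 cases, or 10 under either scaling between libraries (median -0.13), and osteoclast markers above 0 in 9 of 12 (median 0.12), of which 0 passed 2-fold. Over all measured genes 42.4% were below 0, 57.6% were above 0 and 0.320% passed 2-fold in either direction. Of other cell types, 0 of 8 T and B cell markers were measured, stromal markers reached at most 3.35 FPKM (Col1a1), neutrophil markers were led by S100a8 (67.0 FPKM in the KO and 70.2 FPKM in the WT library), and Pf4, a platelet gene, read 26.2 FPKM in the KO and 55.7 FPKM in the WT library (log2 ratio -1.06). In such bulk samples fewer cells of a type and less RNA per cell cannot be told apart.

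Foxo3 (ENSMUSG00000048756, chr10:42181841-42276755, - strand) read 0.548 FPKM in the KO library and 10.3 FPKM in the WT library. The KO library thus retained 5.33% of the WT level, and the log2 ratio was -2.87. If all of the remaining signal came from the longest transcript, of 6848 bases, it would correspond to about 130 fragments in the KO library against about 1800 in the WT library, and to about 57 against 760 if it came from the transcript of 2889 bases. For the shorter transcripts of 1316 and 514 bases it would be about 26 and 10 fragments in the KO library, against about 350 and 140 in the WT library. Among 2961 measured genes of like level 0 were as low, and among all measured genes 3, Foxo3 included, lay as far from 0. The other two, Actr3 and Adcy7, were each listed at 0 in 1 library. Foxo3 was the 1 member lower by 2-fold, a size that 0.200% of measured genes reached on the low side and 0.320% in either direction. At 1.5-fold it was again the 1 lower member, against 0.940% of measured genes on the low side, 0.410% on the high side and 1.35% in either direction. It is the targeted gene, so its value checks the labels.

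Foxo1 and Foxo4, which bind the same DNA motif as Foxo3, were not higher by 2-fold in the KO library. Foxo1 (chr3:52268336-52353221) stood at 5.15 FPKM in the KO library and at 4.96 FPKM in the WT library, a log2 ratio of 0.05. Its exons overlap those of the antisense gene Gm20402, whose reads may not be separable. Foxo4 (chrX:101254528-101260873) stood at 7.14 FPKM in the KO library and at 8.58 FPKM in the WT library, a log2 ratio of -0.24. Both lay inside the middle 95% of genes of like level, which ran from -0.42 to 0.34 around Foxo1 and from -0.37 to 0.33 around Foxo4. Foxo4 was nonetheless the member farthest from 0 after Foxo3, and 248 of the 3527 genes of like level were as low. With 1 library a group, a modest difference of either gene could not be told from library noise.

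**Figure D1:**
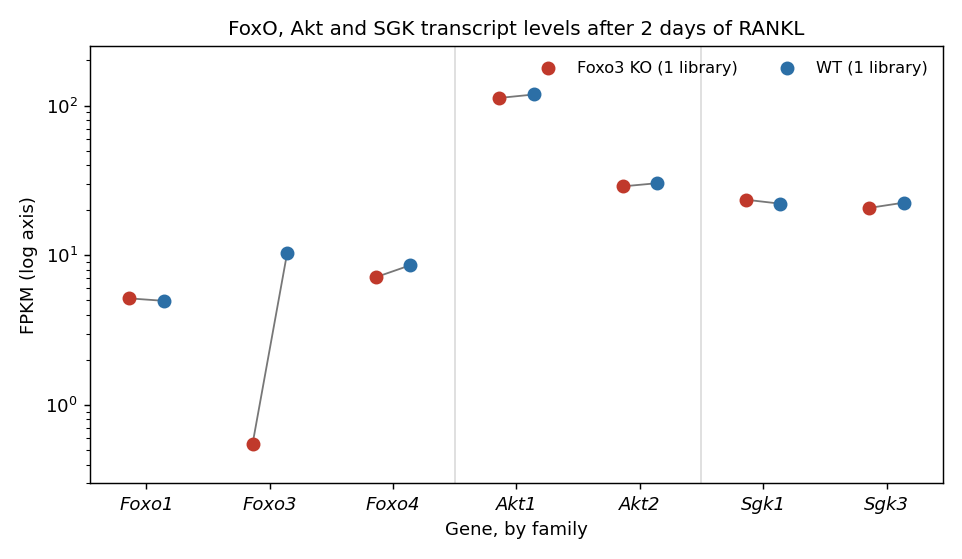
FPKM on a log axis of the 7 genes, with 1 point for the Foxo3 KO library (red, left) and 1 for the WT library (blue, right) of each gene. Foxo3 falls to 0.548 FPKM in the KO library, against 10.3 FPKM in the WT library, and the points of each other gene lie close together.

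Because FPKM is scaled to transcript length, the FoxO genes can be set against each other within a library, and no scaling between libraries can move such shares. In the WT library Foxo3 was the most abundant of the FoxO genes, followed by Foxo4 and Foxo1. Foxo3 made up 4.27% of the summed FoxO level in the KO library and 43.2% in the WT library. Foxo4 made up 55.6% in the KO and 36.0% in the WT library, and Foxo1 made up 40.1% in the KO and 20.8% in the WT library. The larger shares of Foxo1 and Foxo4 in the KO library follow from the lower Foxo3 level in the sum. By FPKM times transcript length, a measure of fragments rather than of level, Foxo1 stood above Foxo4 in both libraries, with 62.9% against 31.8% of the sum in the KO library and 30.6% against 19.3% in the WT library. The sum of the 3 genes in FPKM was 12.8 FPKM in the KO library and 23.8 FPKM in the WT library, so the KO library held 53.9% of the WT level. Foxo1 and Foxo4 together read 12.3 FPKM in the KO library and 13.5 FPKM in the WT library, that is 90.8%. The Foxo4 to Foxo1 ratio was 1.39 in the KO and 1.73 in the WT library. Foxo6 was not analysed here.

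**Figure D2:**
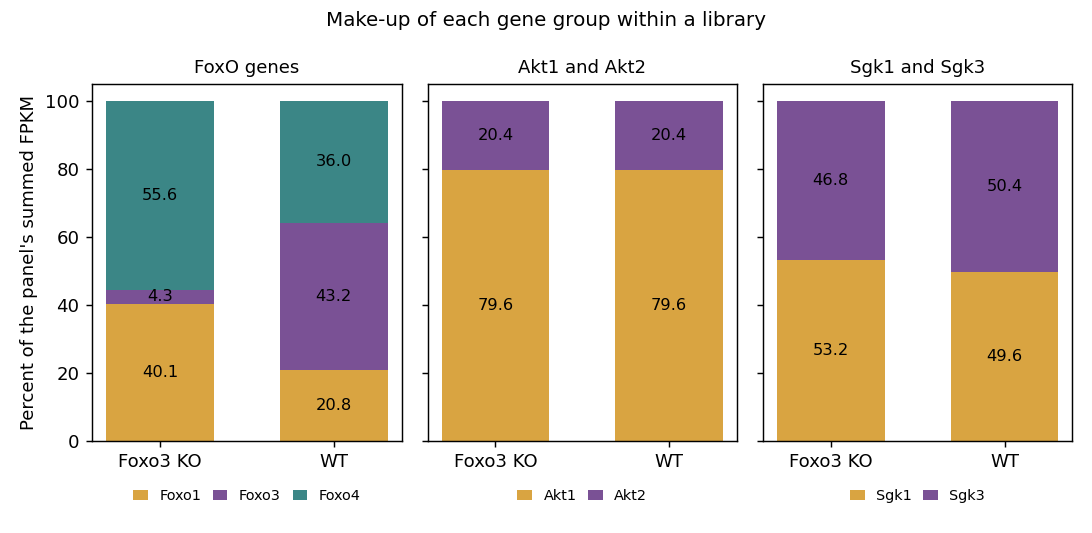
Stacked bars of the percent of the summed FPKM of each panel's genes taken by each gene, for the Foxo3 KO library (left bar) and the WT library (right bar). Foxo3 takes 4.27% of the FoxO sum in the KO library and 43.2% in the WT library, while Akt1 takes 79.6% of the sum of Akt1 and Akt2 in both libraries, and Sgk1 takes 53.2% of the sum of Sgk1 and Sgk3 in the KO and 49.6% in the WT library.

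Akt1, the widely expressed Akt kinase, was the most abundant member in both libraries. Akt1 (chr12:112653821-112674884) stood at 112.3 FPKM in the KO library and at 118.5 FPKM in the WT library, a log2 ratio of -0.08. Akt2 (chr7:27591552-27640826), the isoform best known for insulin-stimulated glucose uptake, stood at 28.8 FPKM in the KO library and at 30.3 FPKM in the WT library, a log2 ratio of -0.07. The Akt1 to Akt2 ratio was 3.90 in the KO and 3.91 in the WT library, so their proportion to each other was nearly equal in the libraries. Their sum was 141.2 FPKM in the KO library and 148.7 FPKM in the WT library, that is 94.9%. Both log2 ratios lay inside the middle 95% of genes of like level, from -0.38 to 0.31 around Akt1 and from -0.35 to 0.30 around Akt2, and 57.7% of all measured genes were at least as far from 0 as Akt1.

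Sgk1, the SGK kinase induced by glucocorticoids, growth factors and osmotic stress, and Sgk3, which is held at endosomes by a lipid-binding domain, were near one another in level. Sgk1 (chr10:21882184-21999903) stood at 23.5 FPKM in the KO library and at 22.1 FPKM in the WT library, a log2 ratio of 0.08. Sgk3 (chr1:9798107-9900845) stood at 20.7 FPKM in the KO library and at 22.4 FPKM in the WT library, a log2 ratio of -0.11. Their order thus differed between the libraries, with a Sgk1 to Sgk3 ratio of 1.13 in the KO and 0.98 in the WT library, a difference that cannot be told from library noise without replicates. By FPKM times transcript length Sgk3 stood above Sgk1 in both libraries, at 51.8% of their sum in the KO and 55.4% in the WT library. Both lay inside the middle 95% of genes of like level, which ran from -0.35 to 0.31 around Sgk1 and from -0.36 to 0.31 around Sgk3. Sgk2 was listed at 0 in both libraries.

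Read as a whole, 1 of the 7 members, the targeted gene Foxo3, was lower and 0 were higher by 2-fold, where 0.120% of measured genes were higher by that size. The other 6 ran from -0.24 (Foxo4) to 0.08 (Sgk1), with 2 above and 4 below 0, against 57.6% of measured genes above 0. The order of levels was Akt1, Akt2, Sgk1, Sgk3, Foxo4, Foxo1 and Foxo3 in the KO library and Akt1, Akt2, Sgk3, Sgk1, Foxo3, Foxo4 and Foxo1 in the WT library. The spread between neighbours in that order is unknown without replicates. With 2 libraries each gene has a single ratio, so likeness to Foxo3 can be measured only by that ratio. At 10 FPKM or more in 1 library and above 0 in both, the nearest genes were Cnrip1 (3.29 FPKM in the KO and 11.04 FPKM in the WT library), the iron exporter gene Slc40a1 (22.4 FPKM in the KO and 59.9 FPKM in the WT library) and the lipid scavenger receptor gene Cd36 (31.9 FPKM in the KO and 84.7 FPKM in the WT library). Their log2 ratios of -1.49, -1.38 and -1.38 are all far from the -2.87 of Foxo3.

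**Figure D3:**
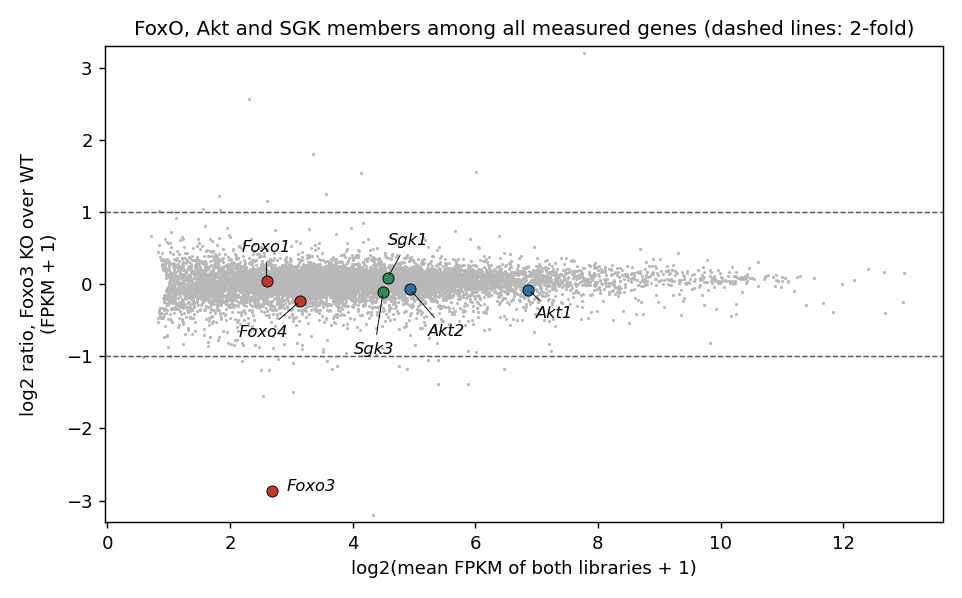
Log2 ratio of FPKM + 1, Foxo3 KO over WT, against the log2 mean level for the 10003 measured genes (grey), with the FoxO members in red, Akt1 and Akt2 in blue and Sgk1 and Sgk3 in green. Dashed lines mark 2-fold, and genes beyond 3.2 on the vertical axis are drawn at its edge. Foxo3 lies at -2.87 and the other labelled genes lie inside the cloud.

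FoxO factors bind the core motif TGTTTAC, and the promoter windows of the genes were searched for these letters on both strands. RefSeq windows (GRCm38.p6, 250 bases before to 50 after each start) were matched for 5 of the 7 members, Foxo1, Foxo3, Akt1, Akt2 and Sgk1, with 14 windows in all. A single window held the motif, at an Akt1 start site, and 3.65% of all 32817 promoter windows held it. That window is printed because it is the only match among the 14, with the motif in capitals, beginning at position -161 relative to the start.
Akt1, chr12:112674835-112675134, - strand: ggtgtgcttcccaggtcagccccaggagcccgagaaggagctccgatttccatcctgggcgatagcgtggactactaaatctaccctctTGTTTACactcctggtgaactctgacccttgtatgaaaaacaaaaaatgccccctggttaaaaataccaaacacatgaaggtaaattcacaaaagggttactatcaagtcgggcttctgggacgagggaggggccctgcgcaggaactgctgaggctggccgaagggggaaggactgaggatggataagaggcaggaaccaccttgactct
The Akt1 level was 112.3 FPKM in the KO and 118.5 FPKM in the WT library, as given above, and a match of letters is no evidence of binding.

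Upstream of the kinases, the receptor and adaptor genes lay mostly below 0 in log2 ratio, while the receptor for M-CSF was close to 0. Of 9 measured genes 8 had a log2 ratio below 0, where 42.4% of all measured genes did. Under either scaling all 9 were below 0. Csf1r (-0.005), Grb2 (-0.006) and Gab2 (0.001), the last chosen after its values were seen, were close to 0 before scaling. With 1 FPKM added 0 passed 2-fold, a size that 0.320% of measured genes reached. The median was -0.20 against 0.03 for all measured genes. The median depended on genes of low level: it was -0.14 with no minimum and -0.01 over the genes at 10 FPKM or more. Csf1r, the M-CSF receptor that feeds PI3K in these cells, stood at 694.6 FPKM in the KO and 697.1 FPKM in the WT library. Its exons overlap those of Hmgxb3, and it also stands in the macrophage marker list. The adaptor gene Grb2 stood at 122.1 FPKM in the KO and 122.6 FPKM in the WT library. Insr, the insulin receptor gene, read 5.31 and Pik3ap1, an adaptor of PI3K in myeloid and B cells, 90.1 FPKM in the KO library, against 6.26 and 104.6 FPKM in the WT library. The receptor gene Igf1r and the adaptor gene Irs2, both chosen after their values were seen, were the farthest from 0. Igf1r read 1.01 FPKM in the KO and 2.23 FPKM in the WT library, a log2 ratio of -0.69. In FPKM alone, with nothing added, that is 45.2% of the WT level. Irs2, itself a known FoxO target in liver, read 1.34 FPKM in the KO and 2.61 FPKM in the WT library, a log2 ratio of -0.62. Its exons overlap those of 9530052E02Rik. Beside this group 9 of 11 macrophage markers were below 0, and their part was not tested. Their sum was 10366 FPKM in the KO library and 12247 FPKM in the WT library, of which Lyz2 alone gave 5674 FPKM in the KO and 7501 FPKM in the WT library, while Tyrobp and Cd68 had log2 ratios of 0.04 and -0.02.

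The enzymes that make and remove the PI3K lipid, and those that switch Akt and SGK on, had medians close to that of all measured genes. Of 10 measured PI3K subunits 6 were above 0, or 5 under either scaling, with a median of 0.04. Of all measured genes 57.6% were above 0, or 51.8% after trimmed-mean scaling. Pik3cg, the catalytic subunit used by G protein-coupled receptors in leukocytes, read 8.14 FPKM in the KO and 10.7 FPKM in the WT library (log2 ratio -0.36), while its regulatory partner Pik3r5 read 94.0 FPKM in the KO and 82.5 FPKM in the WT library (0.19). Pik3r2, the regulatory subunit p85 beta, read 22.7 FPKM in the KO and 19.4 FPKM in the WT library, and the catalytic subunit gene Pik3cb read 49.9 FPKM in the KO and 49.4 FPKM in the WT library. The activating kinases, PDK1 and mTOR complex 2 with the mTOR inhibitor gene Deptor, had a median of 0.05 over 6 genes, none of them farther from 0 than Mlst8 (0.12), whose exons overlap those of Bricd5. Mapkap1, a subunit of mTOR complex 2, read 23.8 FPKM in the KO and 22.2 FPKM in the WT library.

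The phosphatases that oppose the pathway split 5 above and 5 below 0 among 10 measured genes (4 above and 6 below under centring), with a median of 0.01. Inppl1, which removes a phosphate from the PI3K lipid, read 46.6 FPKM in the KO and 41.2 FPKM in the WT library, and Phlpp1, which dephosphorylates Akt, read 9.18 FPKM in the KO and 8.02 FPKM in the WT library. The PP2A subunit genes Ppp2ca and Ppp2r1a had log2 ratios of 0.12 and 0.02. Genes listed as Akt binding regulators split 4 and 4 among 8, with a median of 0.01. Whether each listed product, that of Thoc7 among them, binds Akt was not checked. The chaperone genes Hsp90ab1 and Hsp90aa1 had log2 ratios of 0.06 and 0.04, and Mtcp1, which shares exons with Cmc4, and Thoc7 of -0.17 and -0.13. In neither list did a gene pass 2-fold, a size that 0.320% of measured genes reached. Of all measured genes 57.6% were above 0.

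The machinery that keeps phosphorylated FoxO out of the nucleus was close to its WT level and, apart from the 14-3-3 gene Sfn, abundant. Of 9 measured 14-3-3 and export genes 4 were above and 5 below 0, where 57.6% of all measured genes were above 0. The median was -0.01, with a range from -0.13 to 0.14. Sfn, chosen after its values were seen, set the low end of that range, at 1.21 FPKM in the KO and 1.42 FPKM in the WT library. The 14-3-3 gene Ywhae read 231.5 FPKM in the KO and 233.9 FPKM in the WT library, and Ywhah read 164.2 FPKM in the KO and 164.9 FPKM in the WT library. Ran, the GTPase of nuclear transport, read 113.3 FPKM in the KO and 102.7 FPKM in the WT library, and Ywhag, a further 14-3-3 gene, had a log2 ratio of -0.12. Ywhae alone thus exceeded the summed FoxO level in both libraries on the FPKM scale.

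Other kinases and enzymes that modify FoxO proteins had medians near 0, with Sirt3 the gene farthest above. Over all measured genes 57.6% were above 0, or 51.8% after trimmed-mean scaling. Of 15 measured FoxO kinases other than Akt and SGK 9 were above 0, or 7 after trimmed-mean scaling and 6 after centring, with a median of 0.02. The stress kinase gene Mapk8, which encodes JNK1, and the Hippo kinase gene Stk3 had log2 ratios of 0.19 and 0.17, and Csnk1a1 and Mapk3 of 0.11 and -0.10. Of 14 acetylation, methylation and ubiquitylation genes 8 were above 0 under each scaling, with a median of 0.06. Sirt3, a mitochondrial deacetylase, read 16.2 FPKM in the KO and 11.6 FPKM in the WT library (log2 ratio 0.46), and its exons overlap those of Psmd13 and Ric8a. Of the 10003 measured genes, 9915 had a log2 ratio no higher than that of Sirt3, itself included. Setd7, a lysine methyltransferase, read 5.81 FPKM in the KO and 7.64 FPKM in the WT library (-0.34), while the arginine methyltransferase gene Prmt1 and the deacetylase gene Sirt2, which overlaps Nfkbib, had log2 ratios of 0.18 and 0.03.

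Substrates of Akt and SGK other than FoxO were 6 above and 10 below 0 among 16 measured genes (5 and 11 under either scaling). Their median was -0.03, and 0 passed 2-fold. Over all measured genes 42.4% were below 0 and 0.320% passed 2-fold. The gene standing apart in this list was Ndrg1, whose product is a substrate of SGK1. Phosphorylation of that protein, which was not measured here, is often used to read SGK1 activity. The transcript level does not report that activity. Ndrg1 read 5.71 FPKM in the KO and 9.83 FPKM in the WT library, a log2 ratio of -0.69, and 65 of the 10003 measured genes, Ndrg1 included, were as low. Its exons overlap those of the transcripts Gm17035 and Gm2895. The next farthest, the mTOR regulator gene Tsc1, had a log2 ratio of -0.16, and the cell cycle inhibitor gene Cdkn1a and the p53 ligase gene Mdm2 had log2 ratios of -0.03 and -0.01.

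Downstream, genes known to be activated by FoxO factors in other settings were 9 above and 16 below 0 among 25 measured of 35 listed. Their median was -0.17, and 42.4% of all measured genes were below 0. With 1 FPKM added 0 passed 2-fold, against 0.320% of measured genes. In FPKM alone Gadd45a and Il7r, both chosen after their values were seen, stood at 45.4% and 49.0% of the WT level. With 0.25 FPKM added Gadd45a passed 2-fold (log2 ratio -1.05) and Il7r did not (-0.95). Under trimmed-mean scaling, with 51.8% of measured genes above 0, 18 of the 25 were below 0, and under centring 19. The median was -0.03 with no minimum and -0.08 over the genes at 10 FPKM or more. The catalase gene Cat read 125.8 FPKM in the KO and 189.1 FPKM in the WT library (log2 ratio -0.58). The mitophagy kinase gene Pink1 read 20.3 FPKM in the KO and 31.7 FPKM in the WT library (-0.62). Of the 10003 measured genes, 96 were as low as Cat and 81 as low as Pink1, each counted with itself. Cited2, a transcriptional coregulator gene, went the other way, at 150.7 FPKM in the KO and 128.4 FPKM in the WT library (0.23). The highest log2 ratio among the measured genes of the list was 0.26, that of Sod2, also chosen after its values were seen. That ratio lay inside the middle 95% of all measured genes (-0.41 to 0.34), while Cat and Pink1 lay below it. Sod2 read 58.4 FPKM in the KO and 48.7 FPKM in the WT library. Gadd45a, a DNA damage response gene chosen after its values were seen, was the lowest of the list, at 1.99 FPKM in the KO and 4.39 FPKM in the WT library (log2 ratio -0.85), and its exons overlap those of E230016M11Rik. Insr and Irs2 stand both here and among the receptors and adaptors. Between the same libraries 9 of 11 macrophage markers had a log2 ratio below 0, and their part in this list was not tested.

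**Figure D4:**
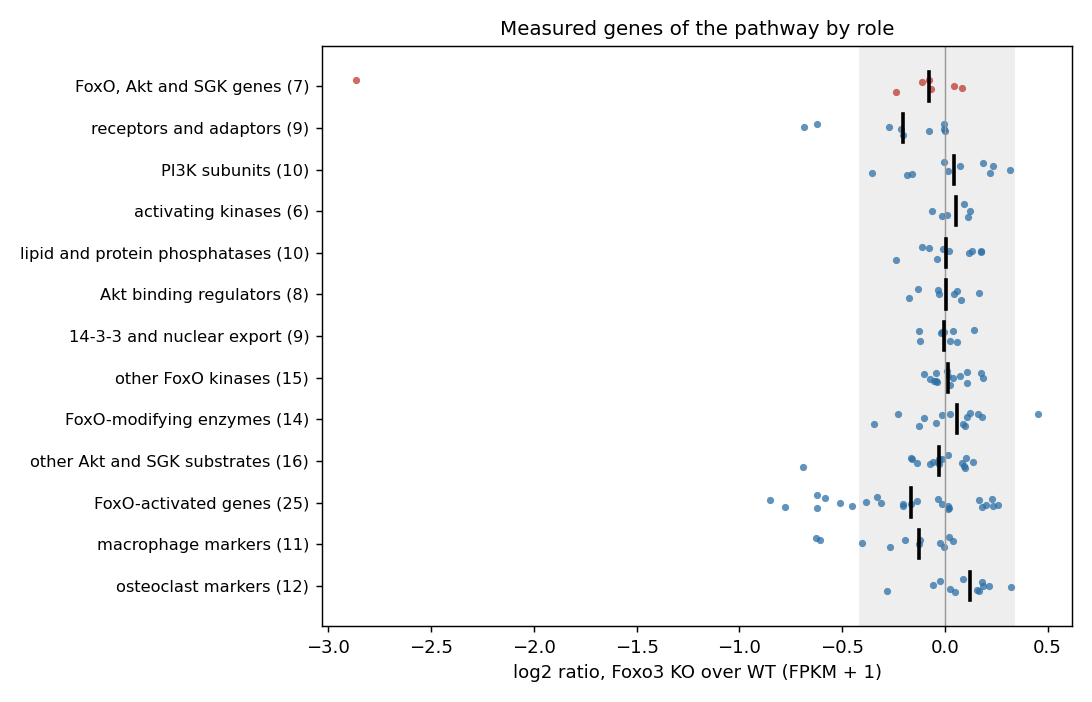
Log2 ratio of FPKM + 1, Foxo3 KO over WT, of each measured gene by its role in the pathway, with the number of genes in brackets, the median as a black bar and the middle 95% of all measured genes shaded (-0.41 to 0.34). Most medians lie near 0, with receptors and adaptors at -0.20 and FoxO-activated genes at -0.17 on the low side. Over genes at 10 FPKM or more these medians were -0.01 and -0.08.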

How the data were processed

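Poly-A RNA from cultured mouse bone marrow macrophages was sequenced in 1 Foxo3 KO and 1 WT library, assigned by the labelled genotype. TopHat, edgeR and mm10 appear in the submitters' processing notes, with no version or role. The deposited values were taken as FPKM because they are fractional and the smallest of them shrink as transcripts lengthen. The constant of 0.000001 was subtracted from each. The log2 ratio was log2(KO + 1) minus log2(WT + 1). Counts had been allowed for when the tests were set out, but a count model could not be used on FPKM, and 1 library a group allows no test, interval or p-value. Differences of at least 2-fold on that scale were counted instead. Depth was estimated from 380 (KO) and 329 (WT) genes of 1 annotated transcript over 1000 bases, as the commonest low value of FPKM times length. Genes of like level were measured genes within 2-fold of a gene's mean FPKM. Named genes were the members and related genes (1 gene that the rule takes is not reported here), the 2 most abundant members of each pathway list and the 2 with the largest absolute log2 ratio at 5 FPKM or more, the 3 most abundant of each marker list, and the 3 genes nearest to Foxo3 in log2 ratio. Genes, lists and tests were chosen with earlier results of these data known. Positions and coding bases came from GENCODE M21 (mm10) and promoter windows from RefSeq (GRCm38.p6). Exon overlaps ignored strand, because whether counting used it is not stated. Alternatives were trimmed-mean scaling (30% of log ratios and 5% of levels trimmed at each end), median centring, pseudocounts of 0.25 and 5, other minimums, 1.5-fold, and FPKM times length. The steps were tested on simulated data. Python 3.11.15, numpy 2.4.6, pandas 2.3.3, scipy 1.17.1 and matplotlib 3.10.9 were used.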

Additional observations from a re-analysis of the deposited data

How the results depend on the processing

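The counts of members lower (1) and higher (0) by 2-fold were the same under both scalings, both other pseudocounts, no minimum, a minimum of 10 FPKM and 1.5-fold. The 1 lower member is Foxo3, the targeted gene, so that count checks the labels. Adding 0.25 FPKM instead of 1 put the Foxo3 log2 ratio at -3.72, and adding 5 FPKM put it at -1.46, as the scale implies by construction. Of 28 recomputed log2 ratios of the members 0 changed sign. Computed on FPKM times transcript length, which favours the longest gene by construction, Foxo1 took 62.9% of the FoxO sum in the KO and 30.6% in the WT library, Foxo3 5.29% in the KO and 50.1% in the WT library, and Foxo4 31.8% in the KO and 19.3% in the WT library, so that Foxo1 stood above Foxo4 in both. Of 84 recomputed list medians 10 changed sign, in lists whose medians as reported lay between -0.03 and 0.05. The medians of receptors and adaptors (-0.20) and of FoxO-activated genes (-0.17) came nearer to 0 at a minimum of 10 FPKM (-0.01 and -0.08) and with no minimum (-0.14 and -0.03). No paired analysis was possible because neither genotype has more than 1 library, and for the same reason no library could be left out. Depth limits low genes most, and no counting interval can be given without read totals.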
